A study of Danio rerio with 6 samples.

Results

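Voltage-gated and potassium channel genes were compared between 2 kinds of zebrafish neuroblastoma, a tumour of the peripheral sympathetic nervous system. The genes were taken by name, as the symbols of the deposited count table that begin as a potassium channel or its subunit (kcn), a sodium channel (scn and a number), a voltage-gated calcium channel subunit (cacna, cacnb, cacng), a pacemaker channel (hcn) or the sodium leak channel (nalcn). There were 94 of them among 14781 symbols, namely 59 potassium, 14 sodium and 20 calcium channel genes and nalcn. By role, 66 encode pore-forming and 28 auxiliary subunits, and no symbol in the count table began with hcn. All tumours arose in transgenic fish that overexpress MYCN. In 3 libraries this was the only change (MYCN-only), and in 3 the fish also carried a gas7 knockout (knockout). The comparison asks how losing gas7 alters the transcripts of tumours that MYCN drives. Neither the labels nor the protocols name the promoter of the transgene, the mutated gas7 copy or the age of the fish. Whether each library stands for 1 fish is not said, and a p-value here reflects library-to-library spread, which may be technical.

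Voltage-gated channels open when the membrane potential changes. Sodium channels carry the upstroke of the action potential, calcium channels couple it to secretion and contraction, and potassium channels end it and set the resting potential. Sympathetic neurons and chromaffin cells, the relatives of neuroblastoma cells, are excitable and release catecholamines when calcium enters through such channels. Auxiliary subunits carry no current of their own but set how many channels reach the membrane and how fast they open and close.

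Total counts ran from 12054844 to 33305326, and each knockout library was deeper than each MYCN-only library. Reads of channel genes made up 0.226% to 0.261% of each knockout total and 0.297% to 0.359% of each MYCN-only total. The only gas7 symbol among the tested genes, gas7a, had 10.03 to 14.8 CPM in knockout and 9.69 to 32.7 CPM in MYCN-only libraries, so its level did not separate the genotypes. CPM are counts divided by library size, scaled by TMM factors so that libraries can be compared. Noradrenergic markers were present in all 6 libraries, with th (tyrosine hydroxylase) at 1664 to 4868 CPM and dbh (dopamine beta-hydroxylase) at 1402 to 5152 CPM. Knockout libraries 2 and 3 stood apart from the other 4 through ovary and oocyte transcripts: 22 of 23 listed markers were in the table, and they summed to 8137 and 10413 CPM there, 36.9 CPM in knockout library 1 and 10.8 to 16.4 CPM in MYCN-only. MYCN-only library 2 stood apart through skeletal muscle transcripts (20 of 24 listed markers in the table), which summed to 7397 CPM there and to 333 to 1263 CPM in the other 5 libraries. The levels of the main genes are therefore given by library, and the other genes by fold change or range.

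Of the sodium channel pore genes, all 7 tested had a log2 fold change below 0 for knockout over MYCN-only in the main fit. The signs of scn1a and scn12aa turned in some fits with other settings or libraries. For 2 of the 7, scn4ab and scn8aa, the groups did not overlap (background 12.3%). The summed level of the class was 323, 361 and 308 CPM in knockout libraries 1, 2 and 3 against 742, 653 and 661 CPM in MYCN-only libraries 1, 2 and 3. The 2 sets of sums did not overlap. In these bulk samples, fewer cells of a type and less RNA per cell cannot be told apart. None of the 7 passed the threshold, an adjusted p under 0.05 over all 12821 tested genes in edgeR's quasi-likelihood test, which called 0 genes of the whole table (0%).

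The gene scn4ab, a zebrafish copy of the gene for the sodium channel of mammalian skeletal muscle, had the smallest p of all channel genes. Its level was 63.7 CPM in knockout library 1, 30.4 CPM in library 2 and 33.4 CPM in library 3, against 265, 167 and 194 CPM in MYCN-only. The gap between the groups was wider than the range of the knockout values. The means were 42.5 ± 18.4 and 209 ± 50.6 CPM (SD, n = 3). The log2 fold change was -2.30 (SE 0.38, n = 3 per group; edgeR adjusted p = 0.174). DESeq2, which called 10.3% of all tested genes, called it (adjusted p = 8e-06). So did edgeR without knockout library 1 (log2 fold change -2.71, adjusted p = 0.00289), a fit that called 14.7% of all genes. The knockout libraries of that fit, 2 and 3, are those with the ovary and oocyte transcripts. The same holds for the calls without knockout library 1 given below. With knockout libraries 2 and 3 left out the scn4ab value was -1.70. The library with the most skeletal muscle transcripts, MYCN-only library 2, had the lowest scn4ab level of its group, and the part of muscle transcripts in the scn4ab result was not tested.

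Among the copies of the neuronal sodium channel gene SCN8A, scn8aa stood at 67.4, 107.6 and 81.7 CPM in knockout and at 253, 152 and 197 CPM in MYCN-only libraries. These ranges did not overlap either (log2 fold change -1.23, SE 0.30; edgeR adjusted p = 0.177, DESeq2 adjusted p = 0.00827). Its sister scn8ab stood at 20.9, 34.8 and 15.0 CPM against 33.5, 62.9 and 35.8 CPM, and the ranges met, since knockout library 2 exceeded MYCN-only library 1. For scn1lab, a copy of the epilepsy gene SCN1A, the values were 128, 166 and 118 CPM against 177, 145 and 217 CPM, with a log2 fold change of -0.39 (SE 0.26). The remaining pore genes were scn12ab (scn5lab in RefSeq), scn12aa and scn1a (scn1laa in RefSeq), at log2 fold changes of -0.83, -0.38 and -0.20. The level of scn1a, singled out after its values were seen, ran from 4.27 to 105 CPM within MYCN-only and was highest in library 2. Its log2 fold change had an SE of 1.23 and ran from -0.73 to 2.60 over the alternative fits, so its sign is not settled. For scn12aa the values ran from -2.39 to 0.07. An eighth gene, scn4aa, had 2 to 11 counts per library and was not tested.

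**Figure D1:**
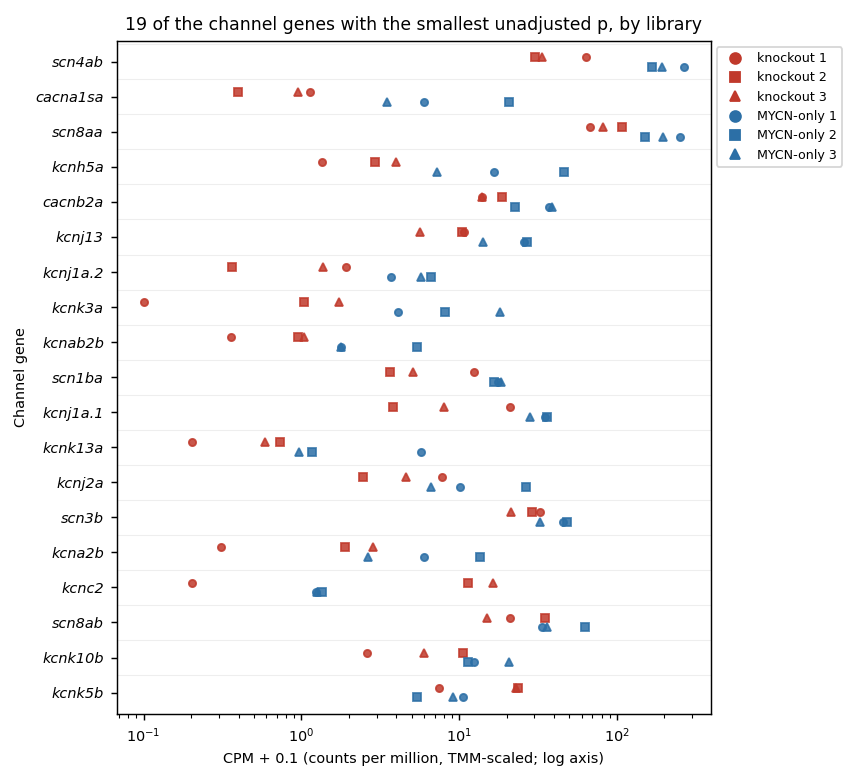
Level of 19 of the channel genes with the smallest unadjusted p, as CPM + 0.1 on a log axis, with 1 symbol per library (red knockout, blue MYCN-only). The genes scn4ab, cacna1sa and scn8aa at the top have separated groups, while kcnc2 is high in knockout libraries 2 and 3 and lowest in knockout library 1.

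Sodium channel beta subunits, small membrane proteins that tune the pore and also act in cell adhesion, were 4 of 6 below 0 and 2 above. The groups were separate for 2 of the 6, both lower (background 12.3% of all tested genes). The copy scn1ba stood at 12.4, 3.55 and 4.98 CPM in knockout and at 17.7, 16.4 and 18.4 CPM in MYCN-only libraries, again with separate ranges (log2 fold change -1.33, SE 0.50; edgeR adjusted p = 0.235). It was called without knockout library 1 (log2 fold change -2.04, edgeR adjusted p = 0.0124), and the value was -0.49 with knockout libraries 2 and 3 left out. The most counted beta gene, scn3b, stood at 32.4, 28.8 and 21.4 CPM against 45.4, 48.4 and 32.6 CPM, so that the groups were separate but knockout library 1 nearly reached MYCN-only library 3. The copies scn4ba and scn4bb had log2 fold changes of -2.47 and 1.01. The first rested on MYCN-only library 2, at 14.8 CPM where the other 5 libraries had 0.519 to 1.38 CPM, and without that library it turned to 0.18.

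Of the 5 calcium channel pore genes, 4 were below 0 and only cacna1sa had separate groups (background 12.3% of all tested genes lower). The gene cacna1sa, a copy of the voltage sensor for muscle contraction, had 1.04, 0.299 and 0.847 CPM in knockout and 5.89, 20.5 and 3.40 CPM in MYCN-only libraries. The ranges did not overlap, and the highest value belonged to MYCN-only library 2, which also had the most muscle transcripts. Its log2 fold change was -3.76 (SE 0.88; edgeR adjusted p = 0.174, DESeq2 adjusted p = 0.0003), and without MYCN-only library 2 it was -2.65. The other copy, cacna1sb, had 5.92, 2.61 and 9.25 CPM against 7.15, 21.2 and 2.48 CPM, which overlapped. Summed muscle markers were 460 to 1160 CPM in knockout and 333 to 7397 CPM in MYCN-only libraries, and their part in the cacna1sa result was not tested.

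The other calcium channel pore genes, cacna1c, cacna1da and cacna1ba, which admit calcium in neurons and endocrine cells, had overlapping groups. The L-type gene cacna1c had 158, 329 and 460.2 CPM in knockout and 465, 399 and 475 CPM in MYCN-only libraries, with knockout library 1 far below the rest (log2 fold change -0.50, SE 0.39). Its relative cacna1da had 134, 247 and 222 CPM against 151, 171 and 207 CPM, and its log2 fold change of 0.19 made it the 1 pore gene of the class above 0. With knockout libraries 2 and 3 left out, cacna1da turned to -0.39. The N-type gene cacna1ba, whose channel triggers transmitter release, had 180.5, 274 and 181 CPM against 221, 283 and 271 CPM (log2 fold change -0.29, SE 0.26).

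Calcium channel beta subunits, which bring the pore to the membrane, were 5 of 6 below 0. The groups were separate for 2 of the 6, both lower (background 12.3% of all tested genes). The copy cacnb2a stood at 13.9, 18.6 and 13.9 CPM in knockout and at 36.9, 22.5 and 38.7 CPM in MYCN-only libraries, without overlap (log2 fold change -1.08, SE 0.31; edgeR adjusted p = 0.192, DESeq2 adjusted p = 0.0286). Its sister cacnb2b had a log2 fold change of 0.01. The neuronal copy cacnb4b was also separate, by a small margin, at 64.5, 83.7 and 73.6 CPM against 90.4, 85.5 and 86.8 CPM (log2 fold change -0.24, SE 0.20). The most counted beta gene, cacnb1, had 100.1, 61.4 and 86.4 CPM against 108.8, 103 and 95.1 CPM, where knockout library 1 lay inside the MYCN-only range. The class as a whole summed to 219.8 to 236 CPM in knockout and to 262 to 301 CPM in MYCN-only libraries, which did not overlap.

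Among the genes of the extracellular alpha2delta subunits, cacna2d1a split the knockout libraries. The gene cacna2d1a had 319.6 CPM in knockout library 1 but 71.7 and 82.2 CPM in libraries 2 and 3, against 217, 150.5 and 307 CPM in MYCN-only. Knockout library 1 was thus above, and the other 2 below, all MYCN-only libraries. The log2 fold change was -0.51 (SE 0.63) over all 6 libraries, -1.55 without knockout library 1 (edgeR adjusted p = 0.0353) and 0.51 with knockout libraries 2 and 3 left out. The genes cacna2d2a and cacna2d2b had overlapping groups, at log2 fold changes of -0.27 and -0.20. Of the gamma subunits, the most counted was cacng2a, a partner of glutamate receptors in mammals, at 26.4, 57.4 and 57.7 CPM against 54.3, 57.7 and 50.4 CPM. It was low in knockout library 1 and within or at the edge of the MYCN-only range in the other 2.

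**Figure D2:**
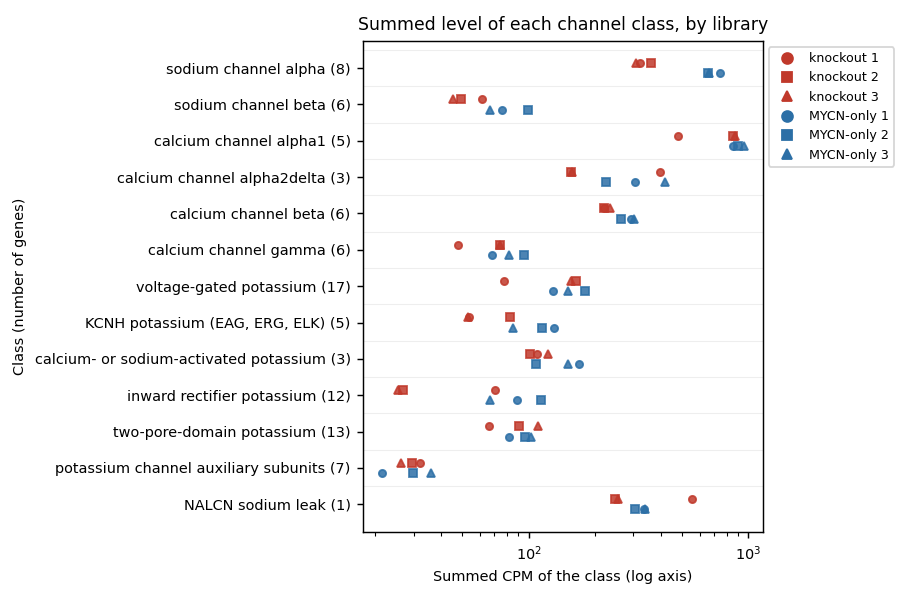
Summed CPM of each channel class except KCNQ on a log axis, with 1 symbol per library (red knockout, blue MYCN-only) and the number of genes in brackets. The sodium channel pores lie between 308 and 361 CPM in knockout and between 653 and 742 CPM in MYCN-only, and knockout library 1 holds the highest nalcn level and the second highest alpha2delta sum.

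Among voltage-gated potassium channel pores, 11 of 14 tested genes were below 0 and 3 above. The A-type channel gene kcnd2, the most counted of them, had 28.6, 57.0 and 42.8 CPM in knockout and 67.6, 55.7 and 63.0 CPM in MYCN-only libraries, with knockout library 2 inside the MYCN-only range (log2 fold change -0.54, SE 0.30). The axonal channel gene kcna2b had 0.208, 1.79 and 2.73 CPM against 5.89, 13.5 and 2.54 CPM, which just overlapped. The related genes kcnc1a and kcnc1b had log2 fold changes of 0.44 and -0.71, and kcnd3 of -2.10 (SE 1.34). The kcnd3 value rested on MYCN-only library 2, at 7.02 CPM where the other 5 libraries had 0 to 1.38 CPM, and was -0.68 without it.

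The largest positive log2 fold change of the tested channel genes belonged to kcnc2, a fast-firing channel gene, at 2.96 (SE 1.34; edgeR adjusted p = 0.289). It had 11.2 and 16.2 CPM in knockout libraries 2 and 3, only 0.104 CPM in knockout library 1, and 1.14, 1.24 and 1.15 CPM in MYCN-only libraries. The knockout libraries thus lay on both sides of a narrow MYCN-only range. Without knockout library 1 it was called as higher (log2 fold change 3.54, edgeR adjusted p = 0.00396), and with libraries 2 and 3 left out it was -3.40 (adjusted p = 0.239). The silent subunit gene kcns3b, singled out after its values were seen, was likewise read in knockout libraries 2 and 3. It had 249 and 530 counts in knockout libraries 2 and 3, 0 in library 1, and 0, 1 and 0 in the MYCN-only libraries. It did not pass the low-count filter. The same 2 libraries carried the ovary and oocyte transcripts, of which only h1m was at 0 in every library, and the part of these in the kcnc2 and kcns3b levels was not tested.

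The KCNQ and KCNH genes included kcnh5a, an EAG channel gene, whose fold change was the largest in size of the 2 classes on the log2 scale (-3.12, SE 0.80; edgeR adjusted p = 0.183, DESeq2 adjusted p = 0.00152). It had 1.25, 2.84 and 3.91 CPM in knockout and 16.6, 46.1 and 7.15 CPM in MYCN-only libraries. All MYCN-only values were above all knockout values, with a wide spread among them. The most counted, kcnh6a, a zebrafish heart repolarisation channel of the ERG type, had 46.9, 69.0 and 41.4 CPM against 107.3, 55.6 and 69.9 CPM, which overlapped (log2 fold change -0.57, SE 0.33). The EAG genes kcnh1a and kcnh1b had log2 fold changes of -0.78 and -0.15, and the ERG gene kcnh2a of 0.65. The gene kcnq2a, whose mammalian counterpart carries the M-current that brakes firing in sympathetic neurons, had 0 counts in knockout library 1, 35 and 17 in libraries 2 and 3, and 18, 55 and 21 in the MYCN-only libraries. For kcnq1 there were 2 to 129 counts in knockout and 8 to 111 in MYCN-only libraries, so its log2 fold change of -0.34 (SE 1.30) carries little information.

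Of the channels opened by calcium, kcnma1a, the large-conductance channel that ends action potentials in chromaffin cells, had 90.9, 81.02 and 115 CPM in knockout and 157, 99.8 and 138 CPM in MYCN-only libraries. Knockout library 3 exceeded MYCN-only library 2 (log2 fold change -0.46, SE 0.27). The small-conductance gene kcnn1a had a log2 fold change of -0.68 and its sister kcnn1b of 1.67. The latter had 13.97, 15.1 and 2.47 CPM in knockout and 1.096 to 4.81 CPM in MYCN-only libraries, with knockout library 3 inside the MYCN-only range.

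Inward rectifiers let potassium in more easily than out and hold the resting potential, and several serve epithelia. Of 8 tested genes 5 were below 0, and 3 of these had no overlap (background 12.3% of all tested genes). The gene kcnj13, known in zebrafish for its role in the stripe pattern of the skin, had 10.7, 10.3 and 5.54 CPM in knockout and 25.8, 27.0 and 14.02 CPM in MYCN-only libraries (log2 fold change -1.33, SE 0.41; edgeR adjusted p = 0.197, DESeq2 adjusted p = 0.0391). The gene kcnj1a.1, of the family that secretes potassium in the mammalian kidney tubule, had 20.8, 3.73 and 7.98 CPM against 34.8, 36.2 and 28.0 CPM. The groups did not overlap (log2 fold change -1.61, SE 0.61; edgeR adjusted p = 0.236). It was called without knockout library 1 (-2.49, edgeR adjusted p = 0.0152), and the value was -0.65 with knockout libraries 2 and 3 left out. Its neighbour kcnj1a.2 had 1.82, 0.261 and 1.27 CPM against 3.61, 6.58 and 5.65 CPM, and a log2 fold change of -2.24 (SE 0.75). The other 4 kcnj1a copies had 0 to 14 counts per library and were not tested. How the counting treated reads shared by such copies is not known, so the split between kcnj1a copies is uncertain.

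Kidney tubule markers were lower in the same libraries as these inward rectifiers, and so were intestine and pancreas markers, whose sums are given further below. Of 17 listed kidney tubule markers 14 were in the table, all with reads, and their summed level was 561 to 1272 CPM in knockout and 1890 to 3261 CPM in MYCN-only libraries. The part of any of these markers in the kcnj1a and kcnj13 levels was not tested. The related gene kcnj1b went the other way, with a log2 fold change of 0.67 (SE 0.83), and overlapped. The resting-potential gene kcnj2a had 7.74, 2.35 and 4.49 CPM against 9.97, 26.3 and 6.58 CPM, which overlapped, and was again highest in MYCN-only library 2. The genes kcnj11 and kcnj8, whose mammalian counterparts form channels closed by ATP in islet cells and vessels, had log2 fold changes of -1.86 (SE 1.18) and 0.27 (SE 0.76). The kcnj11 value rested on MYCN-only library 2, at 5.16 CPM where the other 5 libraries had 0.0651 to 0.934 CPM, and was -0.30 without it.

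**Figure D3:**
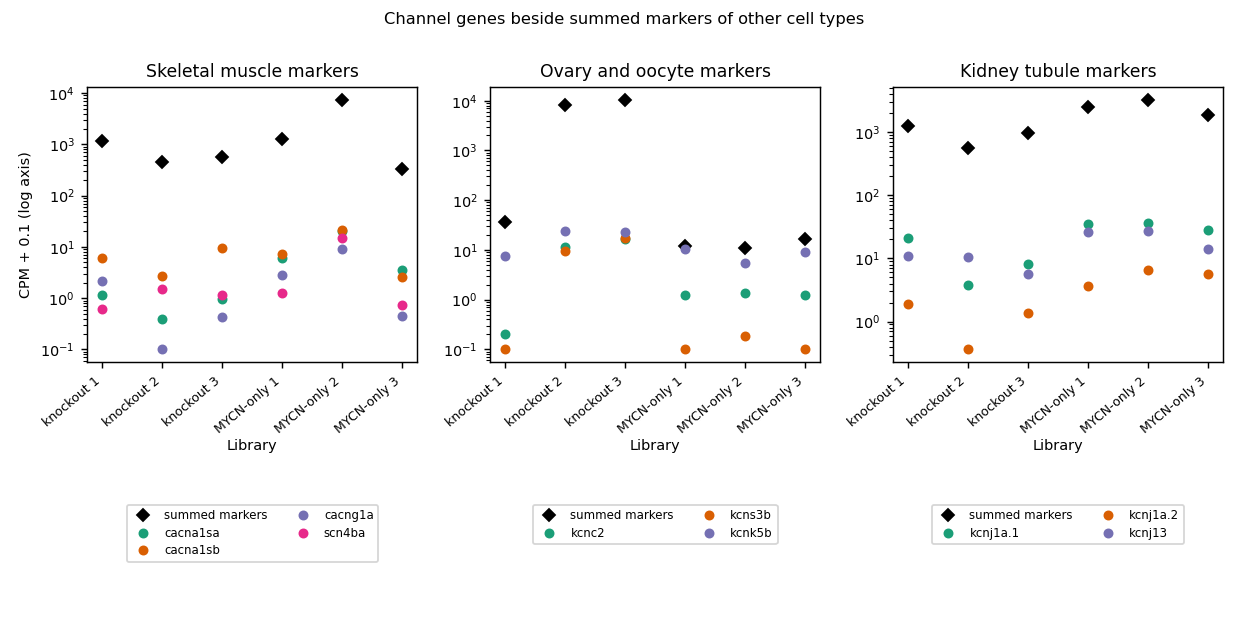
CPM + 0.1 on a log axis of selected channel genes beside the summed markers of skeletal muscle, of ovary and oocyte and of kidney tubule, by library. In the ovary panel kcnc2 and kcns3b are high where the markers reach 8137 and 10413 CPM. In the muscle panel cacna1sa, cacna1sb, cacng1a and scn4ba are highest where the markers reach 7397 CPM (MYCN-only library 2). The genes drawn were picked with their values known. Intestine and pancreas markers, not drawn, also summed lower in every knockout library than in every MYCN-only library. The muscle panel leaves out scn4ab, whose level in that library, 167 CPM, was the lowest of the MYCN-only group.

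Two-pore-domain channels leak potassium at rest. They were 5 above and 6 below 0 among 11 tested genes, and 4 had separate groups, all lower (background 12.3% of all tested genes). The acid-sensitive channel gene kcnk3a had 0, 25 and 50 counts in knockout and 67, 91 and 315 counts in MYCN-only libraries, that is 0 to 1.63 CPM against 4.03 to 18.2 CPM. The groups did not overlap (log2 fold change -3.53, SE 1.27; edgeR adjusted p = 0.22, DESeq2 adjusted p = 0.0272). Its relative kcnk9 ranged from 2.28 to 21.0 CPM within knockout and from 4.81 to 18.7 CPM within MYCN-only. The genes kcnk13a, kcnk10b and kcnk18 had log2 fold changes of -2.59, -1.23 and -1.04, all without overlap. For kcnk13a there were 2 to 17 counts in knockout and 94, 12 and 15 in MYCN-only libraries 1, 2 and 3. Its value, which leaned on MYCN-only library 1, ran from -3.04 to -1.21 over fits that left out 1 library. For kcnk18 the highest knockout value, 1.20 CPM, nearly met the lowest MYCN-only value, 1.27 CPM.

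In the other direction were kcnk5a and kcnk5b, copies of an alkali-activated channel gene of kidney and other epithelia. The copy kcnk5b had 7.32, 23.6 and 22.9 CPM in knockout and 10.5, 5.33 and 9.12 CPM in MYCN-only libraries (log2 fold change 1.11, SE 0.52; edgeR adjusted p = 0.304). Knockout libraries 2 and 3 were above, and library 1 inside, the MYCN-only range. It was called as higher without knockout library 1 (log2 fold change 1.48, edgeR adjusted p = 0.0428) and turned to -0.18 with libraries 2 and 3 left out. For kcnk5a the log2 fold change was 0.91 (SE 0.51). The most counted gene of the class, kcnk6, had 21.3, 28.1 and 30.0 CPM against 17.4, 34.0 and 12.4 CPM and overlapped.

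Potassium channel auxiliary subunits were 3 above and 3 below 0 among 6 tested. The beta subunit gene kcnab2b, whose product binds the cytoplasmic side of the pore, had 5, 23 and 29 counts in knockout and 28, 60 and 29 counts in MYCN-only libraries. Scaled to CPM the groups separated, at 0.260 to 0.944 against 1.67 to 5.33 CPM (log2 fold change -2.04, SE 0.77; edgeR adjusted p = 0.233). The most counted, kcne4, a small membrane subunit, had 12.04, 15.6 and 6.55 CPM against 4.45, 2.67 and 17.1 CPM and overlapped.

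The sodium leak channel gene nalcn, which depolarises resting neurons, had 557, 248 and 256 CPM in knockout and 334, 304 and 338 CPM in MYCN-only libraries. Knockout library 1 lay above, and libraries 2 and 3 below, all MYCN-only libraries, so the log2 fold change of 0.12 (SE 0.36, adjusted p = 0.885 in edgeR) averages opposite deviations. It was -0.37 without knockout library 1 and 0.78 with knockout libraries 2 and 3 left out (edgeR adjusted p = 0.168 and 0.197). Under upper-quartile scaling and in limma-voom the sign was negative (-0.05 and -0.02).

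**Figure D4:**
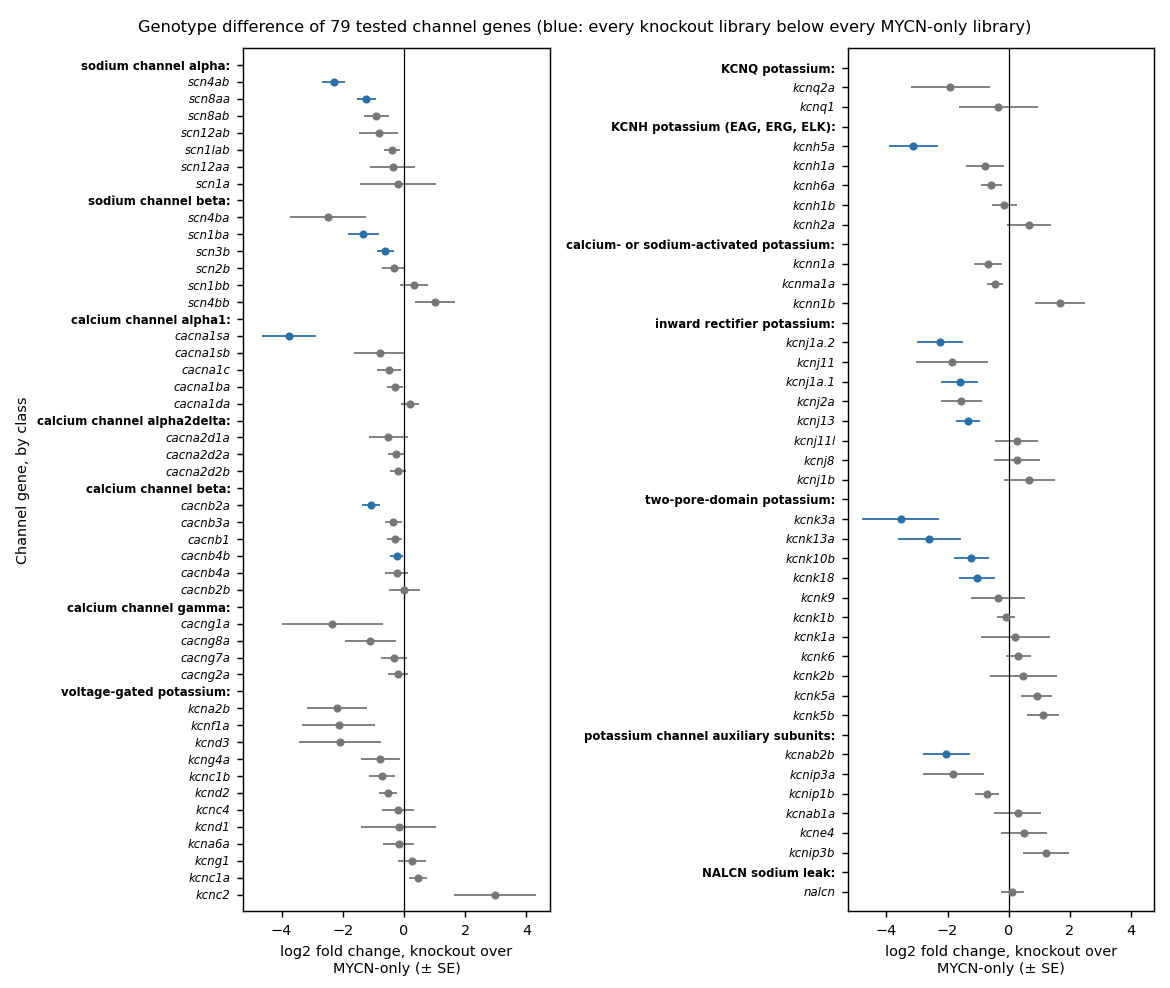
log2 fold change of knockout over MYCN-only, with SE from edgeR, for 79 of the 81 tested channel genes by class. Blue points, 16 in number, mark genes whose 3 knockout libraries all lay under the 3 MYCN-only libraries, and no gene had the opposite separation.

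Across the 94 channel genes, 81 passed the low-count filter, and 13 did not (1 of them, cacng2b, at 0 in all libraries). The filter asks for a minimum count, scaled to library size, in at least 3 libraries. A gene read in 1 genotype could thus pass through that genotype alone, and the counts that follow describe the genes that passed. Of these 81, 60 had a log2 fold change below 0 (74.1%), against 47.6% of all tested genes, and 21 above 0 (25.9%, background 52.4%). The median was -0.38 against 0.04. With no filter but a total above 0, 68 of 93 were below 0. At an unadjusted p under 0.05 there were 13 lower channel genes (16.0%, background 7.57%) and 0 higher ones (background 11.5%). The 0 did not hold in every fit. Without MYCN-only library 2 there were 4 higher and 8 lower channel genes, beside 1019 and 597 of all genes. Without knockout library 1 there were 4 higher and 16 lower, beside 2496 and 1778. All knockout libraries were under all MYCN-only libraries for 17 channel genes (21.0%, background 12.3%), and above them for 0 (background 11.6%).

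The direction was the same in each knockout library taken alone. Knockout library 1 was below the lowest MYCN-only library for 43 of 81 channel genes (53.1%, background 33.9%) and above the highest for 8 (9.88%, background 33.8%). For knockout library 2 these counts were 35 (43.2%, background 33.9%) and 9 (11.1%, background 33.8%). For knockout library 3 they were 41 (50.6%, background 36.2%) and 12 (14.8%, background 36.1%). With knockout libraries 2 and 3 left out, 67 of 85 channel genes were below 0, with a median of -0.77 where all genes had -0.05. Without knockout library 1, 62 of 84 were below 0, with a median of -0.46 against -0.06. These comparisons share the MYCN-only libraries. Within MYCN-only the 3 libraries were not alike, since library 2 held the highest of the 6 values for 30 channel genes (37.0%) against 18.9% of all genes, and leaving it out gave 57 of 83 below 0 and a median of -0.30. In that fit edgeR called 0 channel genes (background 0.0305%, all lower).

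**Figure D5:**
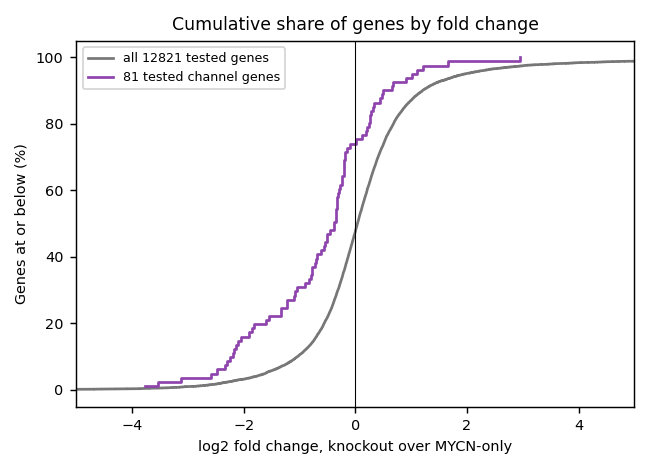
Cumulative share of genes by log2 fold change of knockout over MYCN-only, for the 81 tested channel genes (purple) and all 12821 tested genes (grey). At 0 the purple curve stands at 74.1% and the grey curve at 47.6%.

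Calls depended on the tool. DESeq2 called 8 channel genes, all lower (9.88%, background 4.02% lower and 6.29% higher), namely scn4ab, scn8aa, cacna1sa, cacnb2a, kcnh5a, kcnj13, kcnj1a.2 and kcnk3a. Without knockout library 1, edgeR called 7, of which scn4ab, scn1ba, kcnj1a.1 and cacna2d1a were lower and kcnc2, kcns3b and kcnk5b higher (background 3.51% lower and 11.2% higher). Of these, kcns3b passed the low-count filter of that fit only through the 2 knockout libraries where it is high, so its call had to be a higher one. Only scn4ab was in both sets. In limma-voom 0 channel genes were called (background 0.00780%). At an unadjusted p under 0.05 it had 12 of 81 channel genes, all lower. Of all 12821 tested genes it had 1790 there, 1001 lower and 789 higher.

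Teleosts keep 2 copies of many channel genes, here written a and b. Pairs were taken as symbols that differ only in the final a or b, and 15 such pairs had both copies tested. Copies named otherwise, such as scn1a (scn1laa in RefSeq) and scn1lab, were not counted as a pair. In 7 pairs both copies were below 0, in 1 both were above, and in 7 they pointed in opposite directions. The ratio of the a to the b copy did not overlap between the genotypes in 5 pairs (33.3%), against 23.1% of the 1242 such pairs in the table. For cacnb2 the log2 ratio of reads was 0.05, 0.04 and -0.55 in knockout and 1.97, 1.02 and 0.32 in MYCN-only libraries. For kcnc1 it was 1.66, 0.92 and 0.90 against 0.21, 0.30 and -0.67. The cacna1s and scn4b pairs were also among the 5. Ratios were taken with 0.1 CPM added to each copy.

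Genes that work with the channels were taken from 3 lists. Of 79 listed, 47 were in the table and 43 were tested, with 17 above and 26 below 0 and a median of -0.11. None passed, and 4 higher and 4 lower were under an unadjusted p of 0.05 (background 11.5% higher and 7.57% lower), which is close to the background. Of the sodium-potassium pump, which restores the gradients that the channels spend, 5 genes were above and 8 below 0, with atp1a1b at -1.16, atp1b1b at 2.67, atp1b2b at -1.10 and atp1b3b at 1.12. Of the genes that cluster and traffic channels, 6 were above and 9 below 0, with dlg4b at 1.73, cntnap2b at -0.72, lgi1b at -1.70 and ank2b at -0.56. Of the proteins that bind channel subunits, 6 were above and 9 below 0. In this list, abcc9, abcc8 and fgf14 had log2 fold changes of -0.49, 1.22 and -0.58.

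Markers of other cell types also differed between libraries. Neuron markers (19 of 25 in the table, gap43 at 0) summed to 1367, 755 and 699 CPM in knockout libraries 1, 2 and 3 and to 897 to 1060 CPM in MYCN-only libraries, 14 of 17 tested being below 0 at a median of -0.34. Noradrenergic and chromaffin markers (19 of 22) summed to 6006 to 19810 CPM against 7919 to 9848 CPM, with 10 above and 8 below 0. Schwann cell and glia markers (14 of 16) summed to 59.0 to 118 CPM against 94.3 to 186 CPM, smooth muscle and pericyte markers (9 of 16, pdgfrb at 0) to 6329, 1691 and 2248 against 2653 to 3712 CPM, and heart muscle markers (12 of 13) to 50.2 to 84.3 against 90.9 to 429 CPM. Intestine markers (12 of 14) summed to 45.6 to 94.96 CPM in knockout and to 872 to 1081 CPM in MYCN-only libraries, and pancreas markers (23 of 23) to 156 to 461 against 790.1 to 2283 CPM. Endothelial markers (13 of 15) summed to 946, 319 and 311 against 606 to 649 CPM, and leukocyte markers (14 of 15) to 281 to 901 against 419 to 578 CPM. For the neuron, smooth muscle and endothelial sums, knockout library 1 lay above and knockout libraries 2 and 3 lay below all MYCN-only libraries, as for nalcn and cacna2d1a. Tested markers below 0 were 13 of 14 for kidney tubule, 8 of 8 for intestine and 19 of 19 for pancreas. They were 11 of 12 for Schwann cell and glia, 11 of 13 for endothelium, 16 of 20 for skeletal muscle and 7 of 9 for heart. For smooth muscle they were 6 of 7, for leukocytes 4 of 13, and for ovary and oocyte 1 of 16. The share of all tested genes was 47.6%. The part of these cells in the channel levels was not tested.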

How the data were processed

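Tumour RNA of zebrafish was sequenced as 6 stranded, paired-end total RNA libraries, 3 per genotype, per the labels' protocols. The authors deposited raw counts, 1 row for each gene symbol. The submitters' processing notes name the build danRer10, featureCounts 1.4.6 (Subread) for counting, and TopHat2 2.0.14 with Bowtie2 2.2.6. No source used here gives the annotation or the strand setting of the counting, and overlapping, antisense or near-identical genes may share reads. All 94 channel symbols matched RefSeq assembly GRCz12tu, used for names only, 90 by symbol and 4 by synonym. Transcript lengths were not at hand, so levels are compared between libraries and not between genes. Planned searches of protein and promoter sequences were not run, as no sequences were at hand.

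The whole table was fitted with edgeR 4.0.16 in R 4.3.3: filterByExpr left 12821 genes, with TMM scaling and a quasi-likelihood test on genotype alone, called at a Benjamini-Hochberg adjusted p under 0.05. Variation between libraries beyond counting noise was 52.5% (common coefficient), which may be biological or technical. The scripts were tested on simulated counts. A standard error is the size of the fold change divided by the root of F. Alternatives were other scalings and filters, DESeq2 1.42.0, limma-voom (limma 3.58.1), a block for the replicate number, and fits without 1 or 2 of the libraries. The labels do not say what the replicate numbers mark, and the main fit did not pair samples by them. Every pair of libraries in a group differed by more than sampling noise (lowest chi-square 65.2 for each degree of freedom).

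The channel genes, lists and settings were chosen with earlier results of these data known. Named genes are the 20 channel genes with the smallest p, the most counted of each class, a list of well-known channels, and up to 4 partner genes per list by p. Other genes were named outside this rule, with their values known: scn1a, scn12aa, scn12ab, cacnb2b, cacnb4b, cacng1a, cacng2b, kcnj1b, kcnk18, kcnn1a, kcnn1b and kcns3b. A few genes that the rule names are not reported here, though they stay in the fits and counts. No group of 3 was tested for outlying samples.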

Additional observations from a re-analysis of the deposited data

How the results depend on the processing

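With 3 libraries per group and a wide spread, edgeR's quasi-likelihood test called 0 channel genes and 0 genes in all, with 13 and 2447 at an unadjusted p under 0.05. DESeq2 called 8 and 1323, and limma-voom 0 and 1. Leaving out 1 library gave 0 to 7 channel genes and 0 to 1923 genes in all, the highest counts without knockout library 1. With knockout libraries 2 and 3 left out, 0 channel genes and 9 genes in all were called, where the lone knockout library is assumed to vary like the others. With the replicate block there were 0 and 8, and same-numbered libraries deviated with correlations of -0.09, -0.15 and 0.19, so the numbers are not taken to pair them. Upper-quartile scaling moved the median of all genes by -0.18 and the unadjusted split from 1476 higher and 971 lower to 1028 and 1557. The channel median relative to all genes was -0.43 there and -0.41 with TMM. DESeq2 size factors and both other filters left the counts of calls at 0.

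Of 49 named and tested genes, all kept their direction under DESeq2, DESeq2 size factors and no filter, as did the 47 tested with at least 1 CPM in 3 libraries. The sign turned for nalcn with upper-quartile scaling (-0.047), for nalcn (-0.025) and kcnj8 (-0.39) in limma-voom, and for kcnj8 under the replicate block (-0.16). With knockout libraries 2 and 3 left out it turned for cacna1da (-0.39), kcnk5b (-0.18), kcnc2 (-3.40) and cacna2d1a (0.51). Values changed sign between fits that left out 1 library for the following. Log2 fold changes ran from -0.27 to 0.018 for kcnh1b, -0.37 to 0.089 for cacng2a, -0.61 to 0.75 for kcnj8, -1.26 to 1.27 for kcnq1, -0.37 to 0.31 for nalcn, -1.68 to 0.12 for kcnk9, -3.003 to 0.18 for scn4ba, -1.26 to 0.32 for cacna1sb, and -0.32 to 0.067 for cacna2d2b.
The cause was not tested.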
